A study of Rattus norvegicus with 22 samples.

Results

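The protein genes of the cytosolic ribosome were followed in rat fat. Rows of the gene table were taken where the gene name was that of a small-subunit protein (Rps and a number, or Rpsa), a large-subunit protein (Rpl and a number) or a stalk protein (Rplp0 to Rplp2), and the row was typed as protein coding. This gave 83 of the 24286 rows, with 75 gene symbols: 31 rows were of the small subunit, 49 of the large subunit and 3 of the stalk. Of these, 81 passed the filter on low values (at least 1 FPKM in at least 5 libraries), as did 14019 rows of the table in all. The 2 that did not pass were Rpl3l and Rpl39l.

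The libraries came from 2 fat depots of rats, visceral fat of the mesentery and subcutaneous fat of the groin. The rats had either undergone duodenal-jejunal bypass (DJB), surgery by which food skips the first part of the small intestine, or were labelled as having type 2 diabetes (T2DM). There were 6 visceral DJB and 6 visceral T2DM libraries, and 5 subcutaneous DJB and 5 subcutaneous T2DM libraries. All were labelled wild type, on a high-fat diet and 4 months, and the shared treatment text names streptozotocin at 30 mg/kg, a compound that kills pancreatic beta cells, together with the bypass. The T2DM rats are the only comparison group named, with no healthy and no sham-operated rats, and the labels do not say whether each library of a group is from its own rat, and p-values thus measure the spread between these libraries, which may be technical.

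Each ribosome holds a single copy of nearly every ribosomal protein, so the genes are expressed together and at high level in all cells. Most of their mRNAs begin with a run of pyrimidines, the 5′ terminal oligopyrimidine (TOP) motif, through which the growth-regulating kinase complex mTORC1 controls their translation. The mRNAs are among the shortest of the cell, and many ribosomal protein genes have near-identical copies elsewhere in the genome.

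Library totals lay between 46824314 and 88829000 counts. Genes of the mitochondrial genome took between 5.57% and 48.9% of them. Visceral T2DM library 2 and subcutaneous DJB library 2 stood apart for the ribosomal protein genes, as set out below, and the main comparisons are given with and without them. Summed adipocyte markers (8 genes) were present in every library, in CPM (counts scaled to library depth and to edgeR's TMM normalisation factor). The sum was lowest at 428 CPM in subcutaneous DJB library 2, with a factor of 0.982. It was highest at 57360 CPM in visceral T2DM library 2, where 3 of the 8 genes carried the sum. The factor there was 0.543, and a factor below 1 raises all CPM of its library alike. The log2 deviations given below use the same CPM. In bulk fat, fewer cells of a type and less RNA per cell cannot be told apart.

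Promoter sequence from RefSeq (build GRCr8) was found for 53 of the 75 symbols. In the next lines 6 stretches are shown, from 40 bases before the annotated start to 20 bases after it, in the direction of transcription. They belong to genes whose visceral log2 fold changes of DJB over T2DM, with all libraries, were among the largest and the smallest in size, and to a stalk gene. The former are Rpl41 (−4.07), Rps27 (−3.82) and Rpl37a (−3.20), and the latter Rpl4 (−0.58) and Rpl6 (−0.84). The stalk gene is Rplp0 (−1.42). Capitals mark an unbroken pyrimidine run over the start base.
Rps27, chr2:177964586-177964646, minus strand: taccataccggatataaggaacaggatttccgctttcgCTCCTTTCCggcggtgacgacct
Rpl37a, chr9:81748051-81748111, plus strand: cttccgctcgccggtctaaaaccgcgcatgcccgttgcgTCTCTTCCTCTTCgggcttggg
Rplp0, chr12:46718370-46718430, minus strand: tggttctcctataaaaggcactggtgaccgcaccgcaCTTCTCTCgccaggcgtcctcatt
Rpl4, chr8:73566437-73566497, plus strand: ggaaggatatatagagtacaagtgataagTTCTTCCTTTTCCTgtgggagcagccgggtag
Rpl41, chr7:1563477-1563537, minus strand: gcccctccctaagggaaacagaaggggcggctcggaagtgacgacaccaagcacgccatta
Rpl6, chr12:41011670-41011730, minus strand: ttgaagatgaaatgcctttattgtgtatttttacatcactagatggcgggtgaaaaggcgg
The run is 9 bases long in Rps27, 13 in Rpl37a, 8 in Rplp0 and 14 in Rpl4. No such run covers the annotated start of Rpl41 or Rpl6.

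A start base of C or T within an unbroken run of at least 5 pyrimidines was present in 31 of the 53 genes (58.5%), against 11.7% of the 27456 RefSeq promoters of the same length. For a run of at least 8, the shares were 49.1% of the genes and 4.42% of all promoters. Within the 300 bases around the start, searched on both strands, the motif CCGGAAG stood in 30.2% of the genes against 9.22% of all promoters. The motif AAGATGG, which can share its first letters with the end of CCGGAAG, stood in 13.2% against 7.3%, and TATAAA in 9.43% against 14.3%. These are matches of letters, which depend on where the start is annotated, and no test was made.

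The level of the family was first read as the share of all counts that fell on the 83 rows. The share was 1.56%, 1.98%, 1.87%, 1.83%, 2.50% and 2.59% in visceral DJB libraries 1 to 6. In visceral T2DM libraries 1 to 6 it was 1.66%, 17.0%, 2.86%, 2.53%, 2.52% and 2.71%. Library 2 held several times the share of any other library of the series, and without it the visceral T2DM libraries ranged up to 2.86%, close to the highest visceral DJB library. In subcutaneous fat the share was 1.86%, 6.22%, 4.14%, 3.24% and 3.04% in DJB libraries 1 to 5, against 2.68%, 2.54%, 2.00%, 2.14% and 3.80% in T2DM libraries 1 to 5. Subcutaneous DJB library 2 was the highest of that depot, and the ranges of the 2 subcutaneous groups overlapped. The mean share was 2.06% ± 0.406 in visceral DJB and 4.88% ± 5.96 in visceral T2DM (SD, n = 6 each), or 2.46% ± 0.469 in the 5 visceral T2DM libraries without library 2. In subcutaneous fat it was 3.70% ± 1.63 in DJB and 2.63% ± 0.71 in T2DM (SD, n = 5 each), and 3.07% ± 0.935 in the 4 DJB libraries without library 2.

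**Figure D1:**
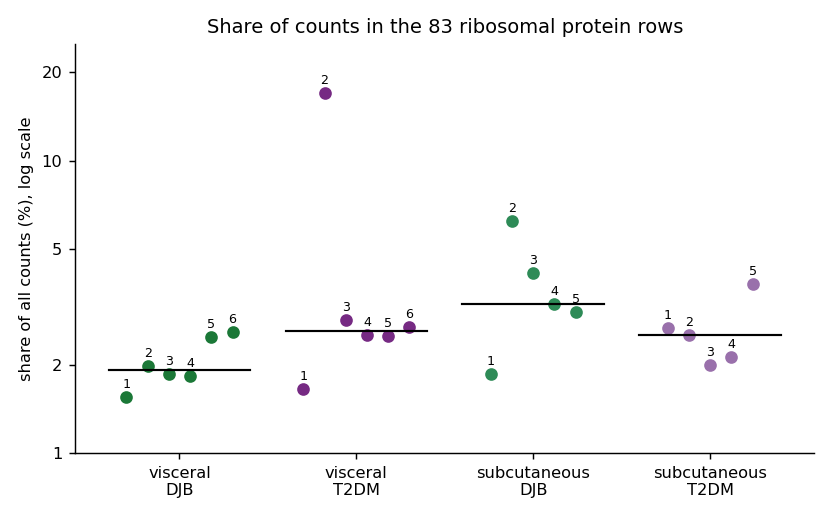
Share of all counts on the 83 ribosomal protein rows (percent, log axis) in each of the 22 libraries. Points are libraries with their replicate number, bars are group medians. Visceral T2DM library 2 lies at 17.0%, subcutaneous DJB library 2 at 6.22%, and every other library between 1.56% and 4.14%.

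Levels were then compared between members per length, as FPKM (fragments per kilobase of transcript, scaled to library depth), averaged over the 22 libraries. The highest rows were Rpsa (1701 FPKM), a protein of the small subunit also known as a laminin receptor precursor, the stalk proteins Rplp1 (1679 FPKM) and Rplp0 (1495 FPKM), which recruit elongation factors to the ribosome, and Rpl10 (1104 FPKM), which joins the large subunit late in its assembly. Without visceral T2DM library 2 these averaged 1413, 1236, 1311 and 986 FPKM in the same order. The median of the row means was 468 FPKM in the small subunit and 325 FPKM in the large subunit without the stalk, and 308 and 273 FPKM without that library. In all, 70 of the 83 rows averaged above 100 FPKM, or 65 without it. The lowest rows were the paralogues Rpl3l, Rpl39l and Rpl10l. Rpl3l, the striated-muscle form of L3, averaged 0.12 FPKM with a highest value of 0.80 FPKM in any library. Rpl39l, a form of L39 known from mouse testis, averaged 0.12 FPKM with a highest value of 0.69 FPKM, and Rpl10l, a form of L10 known from mouse testis, averaged 1.04 FPKM against the 1104 FPKM of Rpl10. Next came the rows of Rpl38 (1.30 FPKM) and Rps29 (2.60 FPKM), each on another chromosome than GRCr8 gives for the symbol. Rps27l, a paralogue of S27 induced by the tumour suppressor p53 in human cells, averaged 12.0 FPKM against 477 FPKM for Rps27, or 10.2 against 204 FPKM without visceral T2DM library 2.

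Members moved together across libraries. Correlation (Pearson's r of log2 CPM over the 22 libraries) of each tested row with the mean of the others had a median of 0.977, and 70 of 81 rows reached 0.9. Since all rows share the libraries and visceral T2DM library 2 spreads them, the same measure over 21 libraries without it had a median of 0.94. The rows least like the others were Rpl10l (0.11), the chromosome 5 row of Rps27a (0.47), the first of 2 chromosome 3 rows of Rpl7a (0.71) and Rpl30 (0.74). Rpl10l is barely expressed, and the other 3 have further rows in the table named for the same protein, which are taken up at the end. Over the 21 libraries without visceral T2DM library 2, 68 of 81 rows reached 0.8. The lowest there were the chromosome 5 row of Rps27a (−0.18), Rpl10l (−0.01), Rps29 (0.24) and Rpl30 (0.41), with the Rpl7a row at 0.59.

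In visceral fat, the 81 rows were all lower in DJB than in T2DM, by a median log2 fold change of −2.07, a 4.19-fold difference, against a median of −0.03 over all 14019 genes tested, of which 52.0% were lower. By edgeR's quasi-likelihood test with Benjamini-Hochberg adjustment over all genes, 21 of the 81 rows fell at an adjusted p under 0.05 and none rose, where 4.27% of all genes tested fell and 0.421% rose. An unadjusted p under 0.05 was reached by 77 of 81 rows, against 22.2% of all genes. The 21 rows that fell included Rpl39, Rpl41, Rps27, Rpl37, Rpl36 and Rpl37a, and 6 of them were of the small subunit and 15 of the large. Without visceral T2DM library 2 the median was −0.30, none of the 81 rows passed (2 had an unadjusted p under 0.05, as did 15.1% of all genes), and 0.464% of all genes fell. No row passed either in a fit of the 12 visceral libraries alone or on the TPM scale, for which the share of all genes is not reported here. DESeq2 called 30 of the 81 rows lower (37.0%), where 8.87% of all genes were called lower. It gave an adjusted p to 46 of the 81 rows and none to the other 35.

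Rpl39, a small protein that lines the exit tunnel for the nascent chain, shows the values behind this difference. It had 5.87, 3.37, 6.45, 6.79, 7.23 and 11.4 FPKM in visceral DJB libraries 1 to 6, against 7.86, 396, 10.2, 12.4, 11.1 and 10.1 FPKM in visceral T2DM libraries 1 to 6. Library 2 was 31.9 times the highest of the other 5 T2DM libraries, and those 5 overlapped the DJB libraries. The log2 fold change was −4.41 ± 1.03 (SE), with an adjusted p of 0.0329 by edgeR's quasi-likelihood test, and −0.66 with an adjusted p of 0.269 without library 2. This row lies on chromosome 14, where GRCr8 has Rpl39 on X, and held 9.24% of the counts of the 7 rows named for L39. Summed over those rows, L39 differed by −3.93 ± 0.98 (SE, adjusted p = 0.0349 by edgeR). Without library 2 the sum was at −0.40 (adjusted p = 0.546).

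Rpl41, the shortest of the ribosomal proteins, ranged from 165 to 310 FPKM in visceral DJB (median 218), against 192 to 391 FPKM in 5 visceral T2DM libraries and 10846 FPKM in library 2. Its log2 fold change was −4.07 ± 1.02 (SE), adjusted p = 0.0351 by edgeR, and −0.44 without library 2 (adjusted p = 0.56). Rps27, a zinc-finger protein of the small subunit, ranged from 123 to 219 FPKM in visceral DJB (median 150), against 135 to 269 FPKM in 5 visceral T2DM libraries and 6225 FPKM in library 2. Its log2 fold change was −3.82 ± 0.97 (SE), adjusted p = 0.0358 by edgeR, and −0.37 without library 2 (adjusted p = 0.62). In both genes the 2 groups overlapped apart from library 2.

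Long rows fell as well. Rps18, a protein of the small subunit's head, has an implied length of 2592 bases, and its row had 64.0 to 106 FPKM in visceral DJB (median 75.5), against 78.8 to 129 FPKM in 5 visceral T2DM libraries and 1505 FPKM in library 2. The difference was −2.86 ± 0.78 on the log2 scale (SE; adjusted p = 0.042 by edgeR), and −0.46 without library 2. The longest rows, Rpl7 (5363 bases) and Rpl11 (4003 bases), differed by −1.18 and −2.18 and did not pass, and neither did the shortest, Rpl38 (227 bases), at −2.14. The Rpl38 row is near the filter, with a mean of 1.30 FPKM and 447 counts over all libraries. It lies on chromosome 8, where GRCr8 has Rpl38 on chromosome 10, and held 7.15% of the counts of the 5 rows named for L38.

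The stalk proteins Rplp0, Rplp1 and Rplp2 did not pass the test in visceral fat. Rplp2 came nearest, with 61.0 to 151 FPKM in DJB (median 105) against 55.7 to 1313 FPKM in T2DM (median 221), which is −2.43 ± 0.71 on the log2 scale (SE), at an adjusted p of 0.0511 by edgeR. Without library 2 it had the largest difference of all members, −0.83, with an adjusted p of 0.429. Rpl5 and Rpl11, which together bind and hold back Mdm2 when ribosome assembly fails, differed by −0.88 ± 0.42 and −2.18 ± 0.67 on the log2 scale (SE), with adjusted p of 0.214 and 0.0632 by edgeR. Rpl11 had 50.3 to 78.8 FPKM in DJB, against 54.5 to 88.9 FPKM in 5 T2DM libraries and 658 FPKM in library 2, so that here too the groups overlapped apart from that library. Rps6, the substrate of the S6 kinases, differed by −1.24 ± 0.53 (SE, adjusted p = 0.163 by edgeR), and Rpsa by −1.70 ± 0.57 (SE, adjusted p = 0.0859 by edgeR). The smallest differences were those of Rpl10l (−0.20 ± 0.49), Rpl4 (−0.58 ± 0.40), a protein that reaches into the exit tunnel, and the chromosome 5 row of Rps27a (−0.63 ± 0.48), a fusion of S27a with ubiquitin. For 1 member, the second chromosome 3 row of Rpl7a, every visceral DJB library lay below every visceral T2DM library in normalised CPM (73.5 to 182 against 200 to 2044 CPM), where 0.485% of all genes did. Summed over the 3 rows named for L7A, the groups overlapped, with 439 to 669 FPKM in DJB and 446 FPKM in T2DM library 1. The sum differed by −1.51 ± 0.51 (SE, adjusted p = 0.0858 by edgeR), and by −0.40 without library 2 (adjusted p = 0.589).

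**Figure D2:**
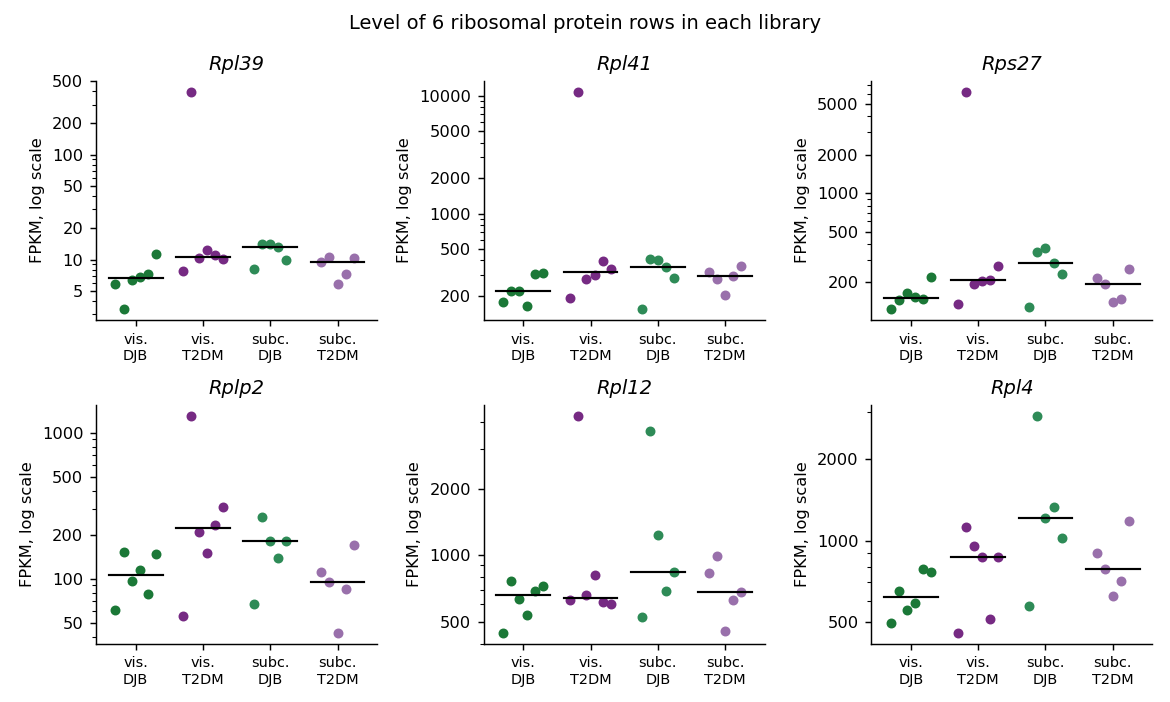
FPKM (log axis) of 6 ribosomal protein rows in each library, by depot (vis., visceral; subc., subcutaneous) and condition; points are libraries and bars group medians. In Rpl39, Rpl41 and Rps27 1 visceral T2DM library stands far above the rest, at 396, 10846 and 6225 FPKM, while in Rpl4 the highest library is a subcutaneous DJB one at 2900 FPKM.

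Other single libraries also moved the count of rows that passed in visceral fat. Without any 1 of the visceral DJB libraries, 0 or 1 rows passed, the 1 without library 4. The share of all genes in these omissions is not reported here, so these counts do not set the members apart from other genes. Without T2DM library 1 the count was 64, where 10.8% of all genes fell. It was 43 without library 3 (4.64% of all genes), 46 without library 4 (5.91%), 43 without library 6 (6.38%) and 4 without library 5 (1.12%). The median log2 fold change lay between −2.32 and −0.30 over these 12 omissions, lowest without T2DM library 1 and highest without T2DM library 2. Group medians, which a single library moves little, gave a median log2 ratio of DJB to T2DM of −0.35 over the 81 rows in visceral fat, below 0 in 79 rows. The same ratio over all genes is not reported here. The rows move together across libraries, so the 79 are not separate observations.

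The question of transcript length was then put to these values. The length that the deposited FPKM imply was 676 bases at the median of the tested members, against 2297 bases for the other genes tested. In visceral T2DM library 2 the deviation of genes from their mean over the 22 libraries fell with length: Spearman's rho across genes that are no members was −0.52, and across the 81 members −0.51. Visceral T2DM library 5 also had a negative relation among the other genes (rho −0.37), and the remaining libraries lay between −0.20 and 0.37. These are correlations across genes of 1 library, which are not independent replicates.

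In library 2 the members exceeded other genes of like length. Against the mean of the other 5 visceral T2DM libraries, the members were higher by a median of 4.04 on the log2 scale. The CPM behind this are scaled by the TMM factor, 0.543 in library 2, which moves all its genes alike. By length, members were higher by 5.04 for the 21 rows under 500 bases, 3.54 for the 39 rows of 500 to under 1000 bases and 3.65 for the 21 longer rows. Other genes of the same lengths differed by 0.69 (852 genes), 1.83 (1164 genes) and −0.17 (11922 genes). Members were thus above other genes in every class, and members of 1000 bases and over were high where other genes of that length were not. A trend of deviation on length, fitted to the other genes, gave 1.59 at the members' lengths, while the members' median deviation was 3.86, an excess of 2.26 on the log2 scale.

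Short genes were also high in visceral T2DM library 5. There the members' median deviation was 0.54 and the trend at their lengths 0.43, a difference of 0.12. Both are on CPM scaled by the TMM factor, 0.654 in that library. The share of its counts on the members was 2.52%, against 1.66%, 2.86%, 2.53% and 2.71% in libraries 1, 3, 4 and 6. The part of the scaling in the deviation was not tested. Within the length classes the members of that library lay between 0.52 and 0.62, while other genes were at 0.20, 0.50, 0.25, −0.13 and −0.53 from the shortest class to the longest. Members thus stood above other genes in each class of that library, by the least at 500 to under 1000 bases. In subcutaneous DJB library 2 other genes were at 0.39, 0.11, −0.04, −0.11 and −0.12 from the shortest class to the longest. The trend was 0.01 at the members' lengths, and the members lay 1.05 above their mean. There, members were high at all lengths, between 0.97 and 1.31 by class.

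**Figure D3:**
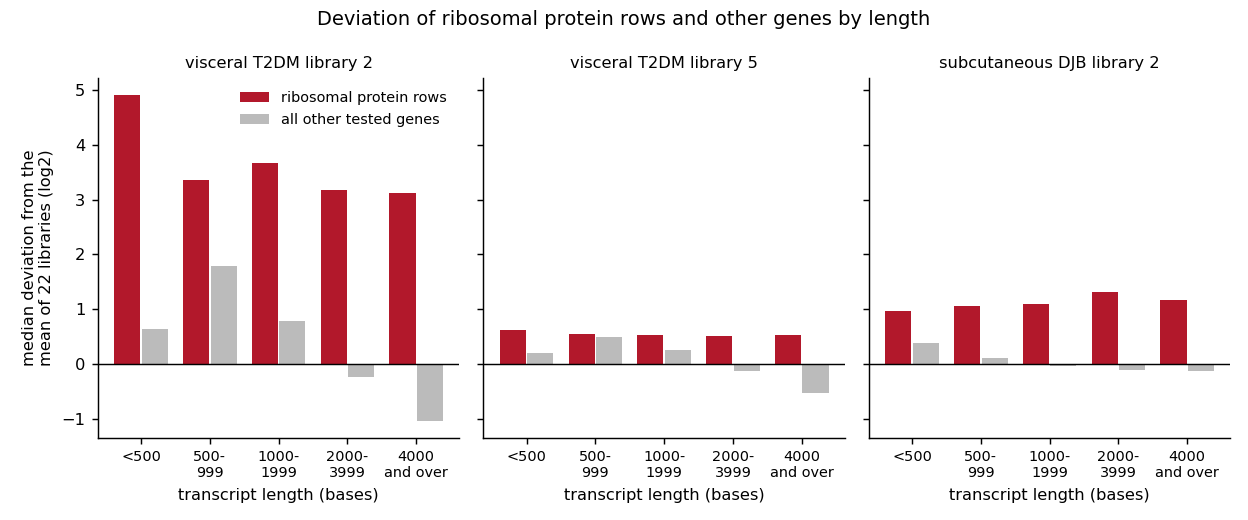
Median deviation from the mean of the 22 libraries (log2) by transcript length class in 3 libraries, for ribosomal protein rows (21, 39, 16, 3 and 2 rows from short to long) and for all other genes tested. In visceral T2DM library 2 the ribosomal protein rows reach 4.91 under 500 bases and 3.12 at 4000 bases and over, where other genes are at −1.04; in library 5 of that group both sets are near 0.5 at 500 to under 1000 bases; in subcutaneous DJB library 2 the rows are near 1 in every class.

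Length was also read in the test itself. Of the 21 rows that fell in visceral DJB, 12 were among the 21 rows under 500 bases (57.1%), 4 among the 39 rows of 500 to under 1000 bases (10.3%) and 5 among the 21 longer rows (23.8%). Among other genes, 9.27%, 8.33% and 3.37% of these classes fell. Across the 81 members, the visceral log2 fold change was related to length with a Spearman's rho of 0.51, the shorter rows having the lower values, and with 0.19 when library 2 was left out. With the length trend of each library taken out of the fit, the members' median visceral log2 fold change was −1.01, 79 of 81 rows stayed below 0 and 1 row, Rpl39, passed (−3.16, adjusted p = 0.0447 by edgeR), where 1.86% of all genes fell. The median difference was thus smaller with the trend removed, and smaller again without library 2.

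**Figure D4:**
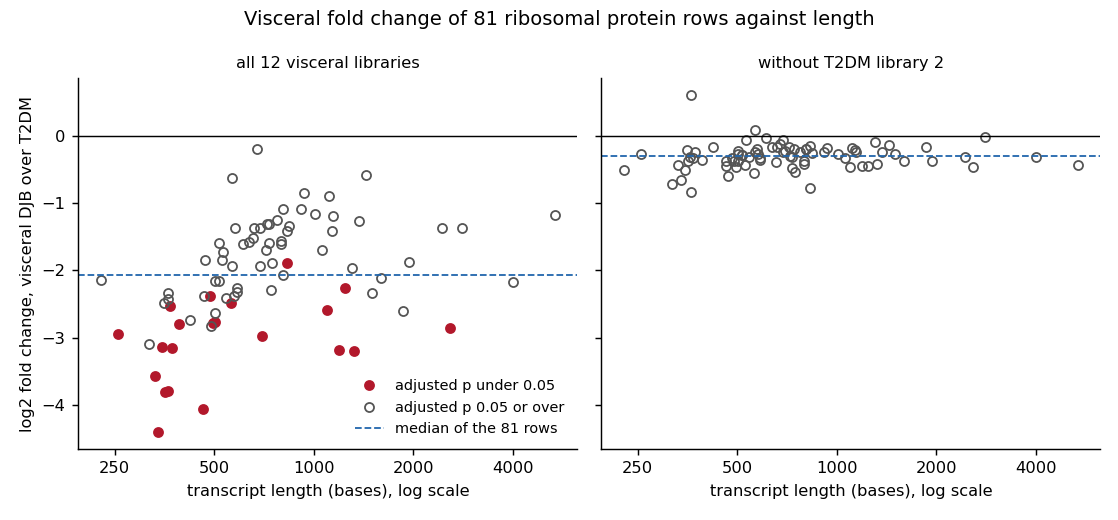
Log2 fold change of visceral DJB over T2DM against transcript length (bases, log axis) for the 81 tested ribosomal protein rows, with all 12 visceral libraries (left) and without T2DM library 2 (right). Filled points passed the test, and the dashed line is the median, −2.07 on the left, where 21 rows passed, and −0.30 on the right, where none did.

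Other gene groups were compared in the same libraries, on the same deviation from the mean of the 22 libraries. In visceral T2DM library 2, oxidative phosphorylation subunits, which make up the machinery of mitochondrial respiration, had a median deviation of 3.48 (79 genes), mitochondrial ribosomal proteins 2.12 (73 genes) and proteasome subunits 1.24 (35 genes), against the 3.86 of the cytosolic ribosomal proteins. The order was another in visceral T2DM library 5: oxidative phosphorylation stood at 2.30, mitochondrial ribosomal proteins at 1.44 and cytosolic ribosomal proteins at 0.54. In subcutaneous DJB library 2, oxidative phosphorylation stood at −0.28 and mitochondrial ribosomal proteins at 0.14, while the cytosolic ribosomal proteins were at 1.05, factors of ribosome biogenesis at 0.80 and RNA polymerase I, which transcribes the ribosomal RNA genes, at 1.03. Oxidative phosphorylation and mitochondrial ribosomal protein genes are short as well, with median lengths of 711 and 1157 bases.

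Markers of other cells moved with 2 of these libraries. In subcutaneous DJB library 2 the B cell marker Cd79a, a subunit of the antigen receptor, was at 411 CPM, against at most 69.0 CPM in the other 21 libraries. Jchain, which joins secreted antibodies of plasma cells, was at 498 CPM there, against at most 127 CPM. The T and NK cell markers (6 genes) summed to 549 CPM in that library, against 22.8 to 191 CPM in the others. Of 5 markers of exocrine pancreas, Cpa1, a carboxypeptidase, was at 396 CPM in visceral T2DM library 2, against at most 16.4 CPM in the others, while the other 4 lay between 0 and 0.994 CPM there, within the range of the other libraries. The adipocyte markers also differed among themselves in visceral T2DM library 2. Fabp4, a fatty acid carrier, Cfd, the secreted factor D, and Adipoq, the hormone adiponectin, were at 34008, 10017 and 7193 CPM, the highest of the series. The other 5 lay within the range of the other libraries, and Lep, the hormone leptin, was at 10.8 CPM, against 90.1 to 186 CPM in the other 5 visceral T2DM libraries. Urothelial markers (6 genes) were at 1182 CPM in it, and 2 other visceral T2DM libraries, 3 and 4, held 1067 and 719 CPM without high ribosomal protein levels. Epithelial markers (6 genes) summed to 3.13 to 11.3 CPM in visceral DJB, against 9.83 to 1256 CPM in visceral T2DM. All 6 of these genes and all 5 tested urothelial genes were called lower in visceral DJB by edgeR, where 4.27% of all genes were. Without library 2, 4 of each were called lower, where 0.464% of all genes were. In subcutaneous fat the milk genes of the mammary alveolus (6 genes) summed to 648 to 92826 CPM in DJB, against 514 to 178805 CPM in T2DM, with no gene called. The part of these cells in the ribosomal protein values was not tested.

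In subcutaneous fat, 79 of the 81 rows had a higher value in DJB than in T2DM, with a median log2 fold change of 0.62, where 55.2% of all genes were above 0 with a median of 0.05. None passed the test by edgeR, none had an unadjusted p under 0.05 (8.98% of all genes did), and DESeq2 called none of the 43 rows it gave an adjusted p. No gene of the 14019 passed in this comparison (0.0%). Without subcutaneous DJB library 2 the median was 0.35 and 74 rows were above 0. On the TPM scale the median was 0.20 with 68 rows above 0, where the median of all genes was −0.21. In no row did the 2 subcutaneous groups stand apart, which 0.399% of all genes did with DJB higher. The largest value was that of Rpl30 (1.92 ± 1.04, SE), which has a second row in the table, followed by Rpl12 and Rpl31.

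Rpl12, a protein at the base of the stalk, had 527, 3646, 1234, 688 and 840 FPKM in subcutaneous DJB libraries 1 to 5, against 828, 991, 456, 626 and 685 FPKM in T2DM libraries 1 to 5. Apart from DJB library 2 the groups overlapped. The log2 fold change was 1.07 ± 0.71 (SE; adjusted p = 0.753 by edgeR), and 0.25 without that library. Rpl4 had 571, 2900, 1217, 1329 and 1019 FPKM in subcutaneous DJB libraries 1 to 5, against 898, 788, 622, 711 and 1177 FPKM in T2DM libraries 1 to 5. The groups overlapped, with the lowest value of all in DJB library 1, and the log2 fold change was 0.88 ± 0.44 (SE; adjusted p = 0.571 by edgeR), and 0.42 without DJB library 2. Below 0 were Rpl10l (−0.97 ± 0.54, SE) and Rps27l (−0.59 ± 0.55, SE), both paralogues of low level.

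Whether the DJB difference was another in the 2 depots was tested as an interaction. The visceral minus the subcutaneous difference had a median of −2.67 over the 81 rows, below 0 in 80 of them, against −0.07 over all genes, of which 54.4% were below 0. No row passed by edgeR's quasi-likelihood test (smallest adjusted p 0.243, for Rpl39; 0.0% of all genes passed), 76 had an unadjusted p under 0.05 where 14.0% of all genes did, and DESeq2 called 1 row lower, that of Rpl32 on chromosome 4, where it called 0.713% of all genes lower. Without visceral T2DM library 2 the median was −0.90, and without both that library and subcutaneous DJB library 2 it was −0.61. All 81 visceral values were below 0 and 79 subcutaneous values above 0, and each of the 2 libraries lies in 1 of the 2 differences.

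Between depots, in T2DM the visceral libraries were higher than the subcutaneous ones in 80 of 81 rows, with a median log2 fold change of 1.91 against 0.02 over all genes, of which 51.3% were higher. By edgeR 14 rows rose and none fell, where 5.44% of all genes rose and 3.28% fell. An unadjusted p under 0.05 was reached by 65 rows, against 24.6% of all genes. The 14 rows were led by Rpl39 (4.18 ± 1.10, SE; adjusted p = 0.0221), Rpl41 (3.90 ± 1.09, SE; adjusted p = 0.03) and Rps27 (3.74 ± 1.04, SE; adjusted p = 0.0297), all by edgeR, and included Rplp2 (2.75 ± 0.77, SE). Without visceral T2DM library 2 the median was 0.10, 61 rows were above 0 and none passed by edgeR (1 had an unadjusted p under 0.05), where 2.79% of all genes rose. Leaving out visceral T2DM library 1 gave 43 rows (8.86% of all genes rose), library 3 gave 36 (6.81%), library 4 gave 34 (7.07%), library 6 gave 28 (5.77%) and library 5 gave 13 (3.1%). Leaving out any 1 of the subcutaneous T2DM libraries gave 0 rows, or 3 without library 5 (3.3% of all genes). For the omissions with 0 rows the share of all genes is not reported here.

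In DJB rats the order of the depots was the other way in most rows: 78 of 81 were lower in visceral fat, with a median of −0.79, where 53.5% of all genes were below 0 with a median of −0.04. None passed by edgeR (1 had an unadjusted p under 0.05, against 14.5% of all genes), whereas 1.09% of all genes fell and 0.228% rose. The smallest p was that of Rpl4, with 494 to 783 FPKM in visceral DJB (median 619) against 571 to 2900 FPKM in subcutaneous DJB (median 1217), a difference of −1.10 ± 0.42 in log2 terms (SE; adjusted p = 0.2 by edgeR). Without subcutaneous DJB library 2 the median was −0.51 and no row had an unadjusted p under 0.05. The comparisons share groups: the visceral T2DM libraries enter both the visceral and the T2DM comparison, so the large values of these 2 are not independent.

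The other genes of the ribosome and of translation were given by lists. Of all genes tested, 4.27% fell in visceral DJB, and 0.464% without visceral T2DM library 2. Among ribosomal protein genes outside the naming rule, Rpl36al fell in visceral DJB (−3.18 ± 0.89, SE; adjusted p = 0.0462 by edgeR), and was at −0.27 without visceral T2DM library 2 (adjusted p = 0.82), with Rpl7l1 at 0.04 and the 2 rows of Rack1, a scaffold on the small subunit, at −0.12 and −1.79. Translation factors gave smaller values: elongation factors had a median of −0.46 (0 of 9 passed) and initiation factors −0.17 (1 of 35 fell, Eif3f at −1.07 ± 0.30, SE; adjusted p = 0.0489 by edgeR, and −0.62 with an adjusted p of 0.186 without that library). Other genes known for TOP mRNAs had a median of −0.46 (1 of 11 fell, again Eif3f), led by Tpt1, the translationally controlled tumour protein, at −1.93 and Naca, a subunit of the nascent chain complex, at −1.31, neither of which passed; without that library they were at −0.34 and −0.49.

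Genes that build ribosomes did not have the values of the ribosomal proteins in visceral fat. Ribosome biogenesis factors had a median of 0.12, with 38 of 54 above 0 and none called, from Nop10 at −1.76 to Rrp12 at 0.77. RNA polymerase I and its factors had a median of 0.22 (0 of 15 called), and regulators around mTORC1 and Myc a median of 0.07 (0 of 19 called). Oxidative phosphorylation subunits had a median of −1.92, with 66 of 79 called lower, led by Atp5f1e (−4.13) and Uqcrq (−3.78). Mitochondrial ribosomal proteins had a median of −1.11, with 14 of 73 called lower, where 4.27% of all genes tested were called lower. Without visceral T2DM library 2 the 2 medians were −1.10 and −0.58, with none called lower by edgeR in either, beside the −0.30 of the cytosolic ribosomal proteins. In subcutaneous fat no gene of these lists was called, and the medians of the lists named here lay between 0.07 and 0.44, highest for the other TOP mRNA genes.

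The TOP-like run of the promoters was set against the fold changes. The 31 genes with a run of at least 5 pyrimidines had a median visceral log2 fold change of −2.07, and 20 of the 22 genes without one, those with a single tested row on the RefSeq chromosome, had −2.05. The medians were −0.28 and −0.25 without visceral T2DM library 2. Rps27, with a run of 9 bases, and Rpl41, with none at its annotated start, had fold changes of −3.82 and −4.07, while Rpl4, with a run of 14, was at −0.58.

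Copies of ribosomal protein genes bear on single rows. In all, 183 rows of the table name a member protein, the 83 members and 100 others, mostly with LOC names; the members held 90.4% of the counts of these rows, between 89.4% and 92.2% by library. Of 81 member rows with a symbol in RefSeq, 67 lie on the chromosome that GRCr8 gives for the symbol and 14 on another. The 67 rows averaged 466 FPKM at the median and the 14 rows 53.0 FPKM, or 319 and 30.8 FPKM without visceral T2DM library 2. The Rps29 row averaged 2.60 FPKM on chromosome 13, while LOC108352650, described as S29 and on chromosome 6, where GRCr8 has Rps29, averaged 457 FPKM. That average again rests on 1 library: summed over all S29 rows, values were 95.9 to 140 FPKM in visceral DJB, against 106 to 185 FPKM in 5 visceral T2DM libraries and 7377 FPKM in library 2. The sum fell in visceral DJB by 4.47 on the log2 scale (SE 1.09; adjusted p = 0.0332 by edgeR), and was at −0.36 without library 2 (adjusted p = 0.621).

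Rpl30, whose protein in yeast binds its own transcript, was split between 2 rows. Its share of the counts of Rpl30 and LOC100362027, an L30-like row on chromosome 10, fell into 3 ranges with wide gaps: 10.6% to 14.6% in 6 libraries, 39.7% to 47.3% in 8 and 69.8% to 77.7% in 8. The lowest range held 3 visceral T2DM and 3 subcutaneous T2DM libraries and no DJB library, the middle one 3 visceral DJB, 2 visceral T2DM, 2 subcutaneous DJB and 1 subcutaneous T2DM library, and the highest 3, 1, 3 and 1 in the same order of groups. Visceral and subcutaneous libraries of the same condition and number were in the same range in 4 of 10 cases. The ranges were noticed in these data and no test was made of them; the reason for the split was not tested.

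The sum was taken over the 4 rows named for L30, of which the other 2 averaged 0.19 and 0.11 FPKM. It was 179 to 248 FPKM in visceral DJB, against 207 to 270 FPKM in 5 visceral T2DM libraries and 3465 FPKM in library 2. The sum differed by −2.75 ± 0.77 on the log2 scale (SE; adjusted p = 0.0472 by edgeR), and by −0.36 without library 2 (adjusted p = 0.657), where the Rpl30 row alone, with all libraries, gave −2.33 ± 0.96 (SE; adjusted p = 0.151 by edgeR). In subcutaneous fat the sum differed by 0.80 ± 0.80 (SE; adjusted p = 0.882 by edgeR), against the 1.92 of the Rpl30 row. In subcutaneous fat the sum lay closer to the median of the members (0.62) than the Rpl30 row did. In visceral fat it lay farther from their median (−2.07) than the Rpl30 row did.

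The 2 rows of Rps27a also shared their counts unevenly, the chromosome 14 row holding from 12.7% to 90.3% of them, with both ends in subcutaneous fat. In subcutaneous DJB library 2 the chromosome 5 row was at 146 FPKM, the lowest of the series, and the chromosome 14 row at 1573 FPKM. The 2 chromosome 3 rows of Rpl7a have nearly equal lengths, and in visceral T2DM library 1 they stood at 9.90 and 326 FPKM. With all copies of a protein summed, 18 of 73 proteins fell in visceral DJB by edgeR, with a median of −2.04, where 3.92% of all genes tested fell. Without visceral T2DM library 2 none passed and none had an unadjusted p under 0.05, with a median of −0.31, where 0.466% of all genes fell. None passed in subcutaneous fat, with a median of 0.64. Values of single rows of these proteins are uncertain, because the authors' counting could place shared reads in either row.

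**Figure D5:**
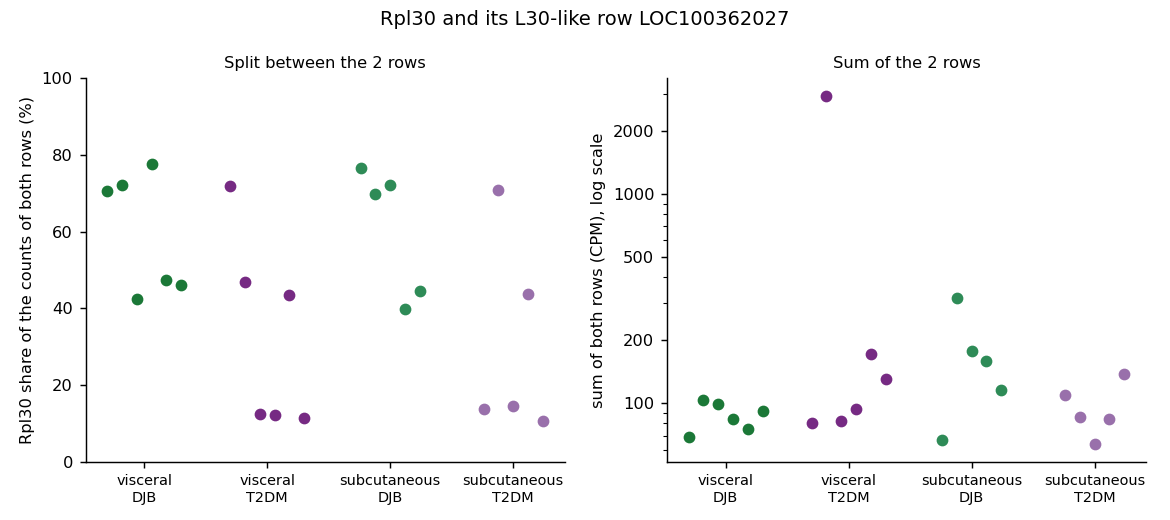
Left, share of the counts of Rpl30 and its L30-like row LOC100362027 that fell on Rpl30 (percent); right, the sum of both rows (normalised CPM, log axis); points are the 22 libraries. The share falls into 3 ranges, 10.6% to 14.6%, 39.7% to 47.3% and 69.8% to 77.7%, while the sum has 1 value far above the rest, 2947 CPM in visceral T2DM library 2.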

How the data were processed

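RNA was sequenced in bulk from 22 fat samples. Per the submitters' processing notes, the tools were cutadapt 1.9 and FastQC and the build mRatBN7.2. Not given in the sources used here are aligner, counter, annotation and strand setting. The single deposited table holds the authors' raw counts and the authors' FPKM values per gene, which differ by a factor for length and depth (SD of the log2 ratio 0.00156 over 11347 genes); transcript length was taken from that ratio.

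Counts were tested with edgeR 4.0.16 in R 4.3.3 (quasi-likelihood, TMM, 1 mean per group, 22 libraries, 5 contrasts, at least 1 FPKM in 5 libraries). P-values were adjusted by Benjamini-Hochberg over 14019 genes, with a threshold of 0.05. DESeq2 1.42.0, limma 3.58.1 on log2(FPKM + 1), TPM scaling, a lowess length trend (span 0.3, pseudocount 0.1 CPM), no filter, a replicate block, single libraries left out and copies summed were alternatives. The code was tested on simulated data. Members, lists and tests were chosen with earlier results of these data known. Members named were, by rule, those with the 3 largest, 3 smallest or 3 most significant differences per contrast, the 4 highest, lowest, shortest, longest and least correlated, paralogues, and those with known roles; Rps18, the 6 promoters and the rows with copies were chosen after their values were seen. The counting could split reads among near-identical copies. Intervals of replicates are SD or SE, and the precision of low rows is limited by depth. Promoters are RefSeq GRCr8; the table's coordinates were not used. Some genes of the lists are not reported here.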

Additional observations from a re-analysis of the deposited data

Results flagged for a closer look

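With 24 group-wise checks for 1 library far from the rest, chance flags about 1 in 20, and 6 values were found. In visceral T2DM library 2, the share of counts on the ribosomal protein rows (17.0%), their median deviation from the mean of the 22 libraries (3.86 on the log2 scale) and the excess of that deviation over the length trend (2.26 on the log2 scale) each stood far above the other 5 libraries of the group. The rank correlation of the members' FPKM with their median over the other libraries was lower in 3 libraries than in the rest of their groups: 0.693 in visceral T2DM library 2, 0.932 in subcutaneous DJB library 2 and 0.963 in subcutaneous T2DM library 5.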

How the results depend on the processing

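Counts of called rows changed most. In visceral DJB against T2DM, 21 rows were called; with the length trend removed and with no filter the count was 1, and it was 0 with TPM scaling, with only the groups compared, without visceral T2DM libraries 2 and 5, without both libraries numbered 2 that stood apart (chosen after seeing the data) and by limma. For visceral against subcutaneous T2DM, 14 rows were called, 1 with the length trend removed, 6 with no filter and 0 in the other 5 of these settings. With copies summed and visceral T2DM library 2 left out (chosen after seeing the data) both counts were 0. Leaving out 1 library gave 0 to 64 and 0 to 43 rows. The share of all genes called is given above for some of these settings only. These counts alone thus do not set the members apart from other genes. DESeq2 called 1 row in the difference of the DJB effects, where edgeR called 0.

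Median log2 fold changes kept their direction except where named. The visceral median was −1.07 with TPM scaling, −0.10 without libraries 2 and 5, −0.30 without both libraries numbered 2, −0.79 by limma, −0.31 with copies summed and library 2 left out, and −2.32 to −0.30 with 1 library left out. The difference of the DJB effects was −1.48 with the length trend removed, −1.31 with TPM scaling, −0.69, −0.61, −1.18 and −0.90 in the other 4 settings just named, in that order, and −2.92 to −0.90 with 1 library left out. Visceral against subcutaneous T2DM was 0.83 with the length trend removed, 0.50 with TPM scaling, −0.074 without libraries 2 and 5, 0.10 without both libraries numbered 2, 0.47 by limma, 0.11 with copies summed and library 2 left out, and 0.10 to 2.14 with 1 library left out. The subcutaneous median lay between 0.35 and 0.79, and that of visceral against subcutaneous DJB between −0.97 and −0.51, with 1 library left out. Rpl41 in visceral against subcutaneous T2DM turned to −0.070 without libraries 2 and 5 (adjusted p = 0.952 by edgeR). TPM scaling put the median of all genes at 0.07, −0.21, 0.28, −0.46 and −0.16 in the visceral, subcutaneous, difference, T2DM and DJB comparisons. The cause of changes by scaling or tool was not tested.

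Replicate numbers did not meet the criterion for pairing, a correlation of deviations above 0.1 in every pair: of 31 same-numbered pairs, 10 had one (range −0.18 to 0.48). The 31 pairs join libraries of any 2 groups, DJB with T2DM included. Visceral and subcutaneous libraries of the same condition form 10 same-numbered pairs, which were not judged apart. The check thus cannot decide whether the depots were paired within a condition. Whether a number marks 1 rat is not stated by the labels. A block by replicate number joins DJB and T2DM libraries as well, so it is not a block by rat. With it, 0 rows were called in either comparison (share of all genes not reported here). The medians were −1.16 in visceral fat, 0.41 in subcutaneous fat, −1.53 for the difference and 0.89 for visceral against subcutaneous T2DM. Depth limits only the lowest rows, such as Rpl3l and Rpl39l.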
